A study of Mus musculus with 4 samples.

Results

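The genes of DNA replication and mitosis described here are 47 members named by symbol, and each symbol matched 1 row of the deposited table of 52636 mouse genes. They fall into 12 regulators of the G1 phase (cyclins D and E with their kinases, inhibitors and E2f1), 15 genes of DNA replication and 20 genes of mitosis. They were measured by RNA sequencing of total lung from C57BL/6 mouse embryos at embryonic day 14.5, in 2 libraries labelled control, of wild-type genotype (controls 1 and 2), and 2 labelled Yap CKO, a conditional knockout of Yap (Yap CKO 1 and 2). The series title places the knockout in the epithelium. The Cre driver, the deleted exons, any allele that the controls carry and any pooling of embryos are not stated in the labels. Nor do the labels say that the 4 samples are different embryos. The 2 controls differ in sex-linked transcripts, with values below, so they do not come from 1 embryo. P-values here reflect only how these samples vary, which between the 2 Yap CKO samples may be technical. Yap is the transcriptional coactivator that the Hippo pathway restrains. Its deletion was labelled for the epithelium, and each library mixes epithelium with mesenchyme, vessels and blood, all of which hold dividing cells.

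Cells enter the cycle when D-type cyclins with Cdk4 or Cdk6, and then E-type cyclins with Cdk2, phosphorylate the retinoblastoma protein and release E2F factors. E2F factors switch on the genes that license and copy DNA, and a later program read by B-Myb and FoxM1 switches on the genes that condense, align and separate the chromosomes. Inhibitors of the INK4 kind (Cdkn2a to Cdkn2d) bind Cdk4 and Cdk6, and those of the Cip/Kip kind (Cdkn1a to Cdkn1c) bind cyclin-kinase complexes more broadly. In the branching lung, cells divide most in the distal epithelial tips and the mesenchyme around them.

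The promoters of the members were searched for known cell cycle letters, which the choice of members did not use. RefSeq promoters of GRCm38.p6, from 250 bases before to 50 bases after each start, were found for 37 of the 47 members (9 G1 regulators, 12 replication and 16 mitosis genes). They were searched on both strands for the E2F letters TTTCCCGC, TTTCGCGC, TTTGCCGC or TTTGGCGC, for the CHR element (cell cycle genes homology region, TTTGAA or TTCGAA), for the CCAAT box (CCAAT), and for CATTCC, the core letters of the TEAD factors through which Yap binds DNA. A CHR element together with a CCAAT box was found in 12 of 16 mitosis promoters (75%), in 2 of 12 replication promoters (16.7%) and in 0 of 9 G1 promoters, against 6.94% of the 11296 tested protein-coding genes with a promoter in the table. E2F letters were found in 8 of 12 replication promoters (66.7%), 1 of 16 mitosis promoters (6.25%) and 1 of 9 G1 promoters (11.1%), against 4.51% of the tested protein-coding genes. The CCAAT box by itself did not part these 2 roles. It was in 10 of 12 replication promoters (83.3%), 14 of 16 mitosis promoters (87.5%) and 4 of 9 G1 promoters (44.4%), against 42.6%. The TEAD letters were found in 1 G1 promoter (Ccnd3), 1 replication promoter (Mcm3) and 0 mitosis promoters, against 14.7%. Ccnd1 and Ccnd2 were not among the promoters searched. The further genes of each role, divided less clearly. E2F letters were in 7 of 16 further G1 promoters (43.8%), 14 of 47 of replication (29.8%) and 7 of 60 of mitosis (11.7%). CHR with CCAAT was in 5 of 16 (31.2%), 5 of 47 (10.6%) and 33 of 60 (55%), and TEAD letters in 2 of 16 (12.5%), 6 of 47 (12.8%) and 11 of 60 (18.3%). Letters in a promoter are a description and do not show that a factor binds there. The 150 bases just before the start are printed for 3 mitosis genes and 3 replication genes, to show the 2 arrangements side by side, with every match in capitals. CCAAT or ATTGG is the CCAAT box, TTTGAA or TTCAAA the CHR element, and the capital runs that hold GGCGC or GCGCC are the E2F letters.
Mki67, chr7:135716380-135716529, minus strand: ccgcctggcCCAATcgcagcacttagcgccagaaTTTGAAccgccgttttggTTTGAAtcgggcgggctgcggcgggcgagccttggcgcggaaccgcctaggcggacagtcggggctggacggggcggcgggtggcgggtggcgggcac
Kif11, chr19:37376232-37376381, plus strand: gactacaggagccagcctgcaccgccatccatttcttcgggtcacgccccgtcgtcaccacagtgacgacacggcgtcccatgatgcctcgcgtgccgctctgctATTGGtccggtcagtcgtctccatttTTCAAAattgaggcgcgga
Cenpf, chr1:189688087-189688236, minus strand: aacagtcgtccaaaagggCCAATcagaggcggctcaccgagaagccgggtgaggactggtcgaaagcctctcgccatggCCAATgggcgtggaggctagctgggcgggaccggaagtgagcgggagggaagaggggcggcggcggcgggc
Mcm6, chr1:128359706-128359855, minus strand: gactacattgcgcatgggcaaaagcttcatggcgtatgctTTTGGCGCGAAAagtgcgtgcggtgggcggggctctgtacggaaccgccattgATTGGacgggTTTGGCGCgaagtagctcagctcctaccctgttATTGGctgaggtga
Mcm5, chr8:75109359-75109508, plus strand: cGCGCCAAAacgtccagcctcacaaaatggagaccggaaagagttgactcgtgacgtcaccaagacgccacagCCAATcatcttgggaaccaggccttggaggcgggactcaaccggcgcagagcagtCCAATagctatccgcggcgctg
Pola1, chrX:93632156-93632305, minus strand: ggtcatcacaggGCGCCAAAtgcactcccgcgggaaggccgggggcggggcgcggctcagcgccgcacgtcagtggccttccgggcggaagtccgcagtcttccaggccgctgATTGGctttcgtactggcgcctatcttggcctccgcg
In the printed stretches Mki67 and Kif11 hold the CHR element beside a CCAAT box, and Cenpf holds 2 CCAAT boxes, with its CHR element after the start and outside the stretch. Mcm6 holds E2F letters on both strands in a single run from -110 to -99 and again at -47. The stretches of Mcm6, Mcm5 and Pola1 hold CCAAT boxes as well.

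The libraries held between 17756301 and 21333878 gene reads. Yap1 read 5686 and 3467 normalized counts in the controls against 3209 and 4483 in Yap CKO, so the groups overlapped and the targeted gene does not check the labels. The libraries also differed in sex-linked and heart transcripts. Ddx3y of the Y chromosome was at 1726 in control 1 and at 5.77 to 16.4 in the others. Xist of the X chromosome was at 42.6 in control 1 and at 42729 to 50045 in the others. The 15 heart muscle genes summed to 51340 in control 2 and 11539 in Yap CKO 1, against 1849 in control 1 and 2149 in Yap CKO 2.

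All 47 members were abundant enough to be tested, and 0 of 47 passed between Yap CKO and control lungs at an adjusted p under 0.05 (limma). Over all 19472 genes tested, 2.33% passed, 231 higher (1.19%) and 223 lower (1.15%) in Yap CKO, and 2.55% passed among genes at least as abundant as the lowest member. With libraries scaled to equal totals the split of all calls was 292 higher and 179 lower. Before adjustment 6 members had a p under 0.05, all lower (Ccnd1, Ccnd2, Ccnd3, Cdt1, Pola1 and Cenpf), or 12.8% of the members against 9.52% of all genes (9.34% higher) and 11.2% of genes as abundant as the members (lower). edgeR called 0 members and DESeq2 called 2, Ccnd2 and Ccnd3, where they called 2.07% and 5.33% of all genes. Log2 changes, given here as Yap CKO minus control on the log2(normalized count + 1) scale, ran from -0.55 (Ccnd3) to 0.23 (Cdkn1a), with a median of -0.078 over the members and -0.005 over all genes tested. In a whole lung, fewer cycling cells and less RNA per cell cannot be told apart.

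The precision of these estimates bounds the size of a difference in whole-lung RNA under the deposited scaling. It does not bound a difference within the epithelium alone. The 95% interval of limma lay within 1 log2 unit of no change, which is a factor of 2 either way, for 47 of 47 members, and within 0.5 log2 units for 34. The median standard error was 0.10 over the members and 0.15 over all genes tested. Of the members, 36 had a negative change (76.6%, against 50.6% of all genes and 54.3% of those as abundant). This count depends on the scaling: with libraries scaled to equal totals, which moved the median of all genes from -0.005 to 0.057, it was 25. That scaling moved members and other genes alike, and the share of all genes with a negative change under it was not counted. In 18 members both Yap CKO libraries lay below both controls (38.3%, against 25.6% of all genes and 28.9% of those at least as abundant as the lowest member), and in 2, Cdk2 and Orc1, both lay above (4.26%, against 25.2% and 22.6%).

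**Figure D1:**
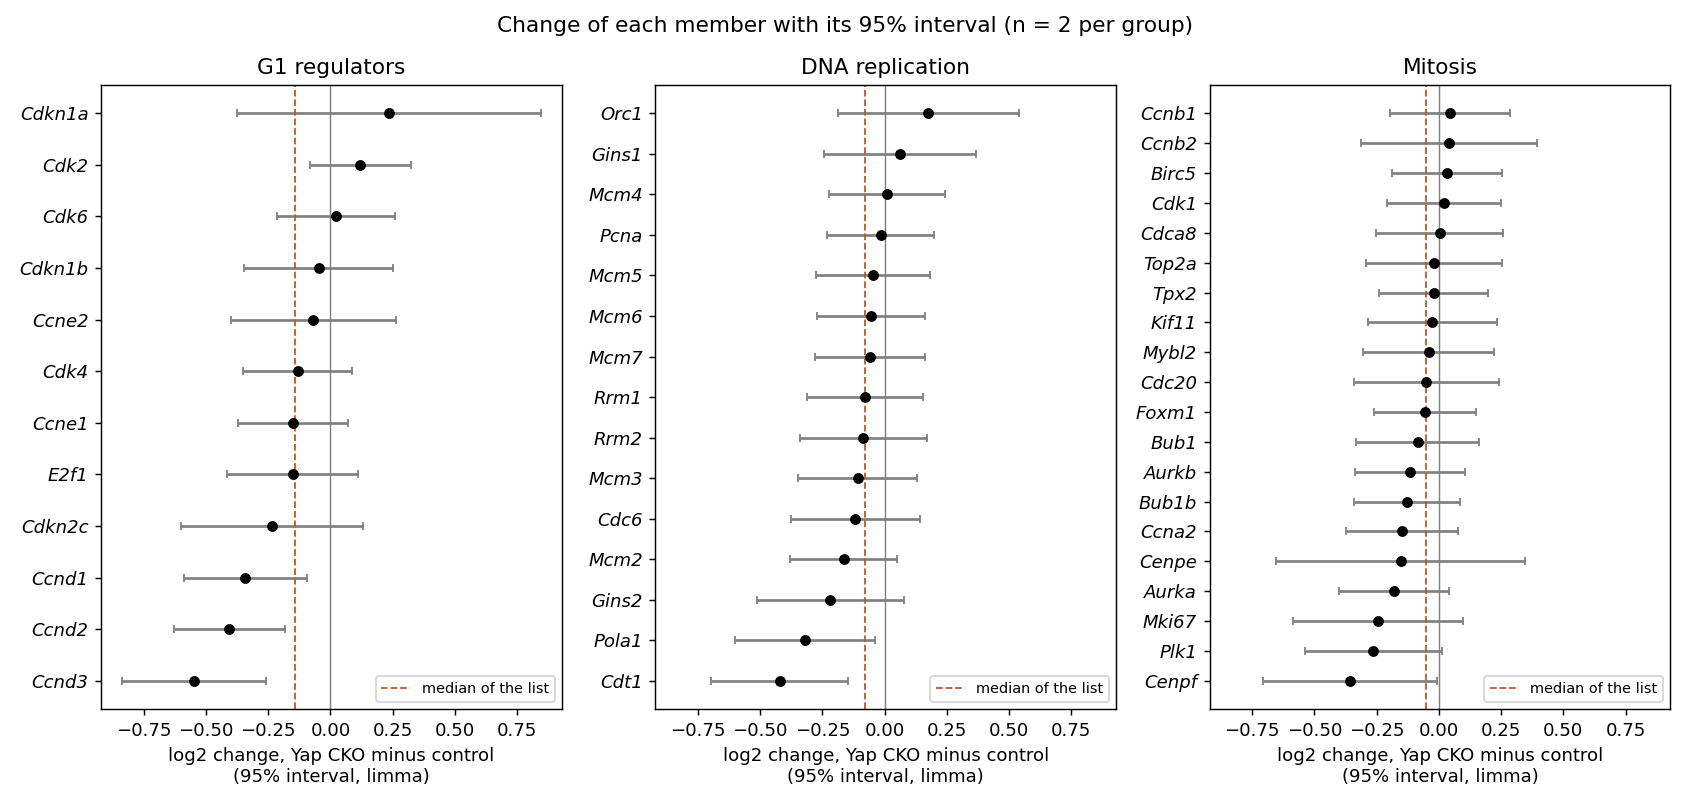
Log2 change of each member (horizontal axis, Yap CKO minus control, points) with its 95% interval from limma (bars, n = 2 per group), in 3 panels by role, with a dashed line at the median of each panel. The intervals of Ccnd1, Ccnd2, Ccnd3, Cdt1, Pola1 and Cenpf exclude 0 before adjustment, and none of the 47 members passes after it.

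The D-type cyclins, the sensors that couple growth signals to the cycle, were the G1 regulators with the lowest p-values. Ccnd2 (mm10 chromosome 6, 127125162 to 127152193) read 12418 and 12860 normalized counts in controls 1 and 2, against 9679 and 9399 in Yap CKO 1 and 2. Ccnd1 (chromosome 7, 144929931 to 144939925) was at 4424 and 5124 in the controls, against 3763 and 3750 in Yap CKO. Ccnd3 (chromosome 17, 47505051 to 47599691) was at 2563 and 2916 in the controls, against 2034 and 1718 in Yap CKO. For each of the 3 genes both Yap CKO libraries lay below both controls, and control 2 was the highest library. The means were 24.5% lower for Ccnd2 (12639 ± 312 to 9539 ± 198, SD, n = 2), 21.3% lower for Ccnd1 (4774 ± 495 to 3756 ± 9.24) and 31.5% lower for Ccnd3 (2740 ± 250 to 1876 ± 224). In limma Ccnd2 differed by -0.41 ± 0.093 (SE, interval -0.63 to -0.18, adjusted p = 0.0867). Ccnd1 differed by -0.34 ± 0.10 (interval -0.59 to -0.095, adjusted p = 0.151) and Ccnd3 by -0.55 ± 0.12 (interval -0.84 to -0.26, adjusted p = 0.0797). None of the 3 passed in that fit, while DESeq2 gave adjusted p-values of 8.47e-04 for Ccnd2, 0.00491 for Ccnd3 and 0.0695 for Ccnd1.

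Control 2, the highest library for the D cyclins, was also highest for the heart muscle genes, and the part of that signal in the result was not tested. Without control 2 the differences were -0.24 for Ccnd1, -0.38 for Ccnd2 and -0.46 for Ccnd3, and without control 1 they were -0.45, -0.43 and -0.64. Without Yap CKO 1 they were -0.34, -0.43 and -0.67, and without Yap CKO 2 they were -0.34, -0.38 and -0.43. Each of these fits leaves 1 library in a group, so that group's spread is not measured. The share of all genes called moved as well, to 12.6% when either control was dropped and to 0.0103% or 0.0359% when the first or the second Yap CKO library was. Each D cyclin shares exons with an antisense gene in the annotation, and with the strand setting unknown their reads cannot be told apart. The same limit holds for other members. In all, 17 of the 47 share exons with another gene, 15 of them with an antisense gene, Cdk2 and Cdk4 included. LTO1, opposite Ccnd1, differed by 0.057 (adjusted p = 0.846), and Bysl, opposite Ccnd3, differed by -0.030 (adjusted p = 0.952). Of the genes opposite Ccnd2, 9330179D12Rik held 5.59 to 11.7 normalized counts and Gm43126 held 0 to 0.96.

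The kinases that the cyclins activate showed smaller differences. Cdk4, partner of the D cyclins, was at 9738 and 10033 in the controls, against 8999 and 9043 in Yap CKO, a difference of -0.13 (adjusted p = 0.492). Cdk6, its paralog, was at 2553 and 2534 and at 2426 and 2753, and its groups overlapped. Cdk2, partner of the E cyclins, was the only G1 regulator whose Yap CKO libraries both lay above the controls, at 2847 and 2895 against 3134 and 3110 (0.12, adjusted p = 0.502). Of the E cyclins, which drive entry into S phase, Ccne1 was at 1390 and 1404 in the controls and 1229 and 1289 in Yap CKO (-0.15, adjusted p = 0.437), without overlap. Ccne2 was at 1311 and 1563 against 1234 and 1510 (-0.068, adjusted p = 0.832), with overlap. E2f1, the activator released by the retinoblastoma protein, was at 1156 and 1061 against 1058 and 940 (-0.15, adjusted p = 0.513), where Yap CKO 1 lay just below control 2. Without single libraries it ran from -0.24 to -0.066. Over the 12 G1 regulators 7 had both Yap CKO libraries below both controls (58.3%, against 25.6% of all genes), namely the 3 D cyclins, Ccne1, Cdk4, Cdkn2c and E2f1, and the list's median change was -0.14.

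The inhibitors among the members did not pass either. Cdkn1a, which encodes p21 and is induced by p53, was at 131 and 219 in the controls, against 204 and 195 in Yap CKO. Control 1 stood apart below the other 3 libraries, and the difference of 0.23 had the widest interval of any member (-0.38 to 0.85, adjusted p = 0.674). It was 0.60 without control 2 and -0.13 without control 1, so the choice of control set its direction. Cdkn1b, which encodes p27, was at 1357 and 1133 in the controls, against 1275 and 1129 in Yap CKO (-0.048, adjusted p = 0.872). Cdkn2c, which encodes the INK4 inhibitor p18, was at 233 and 255 in the controls and 195 and 219 in Yap CKO (-0.23, adjusted p = 0.471), without overlap.

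**Figure D2:**
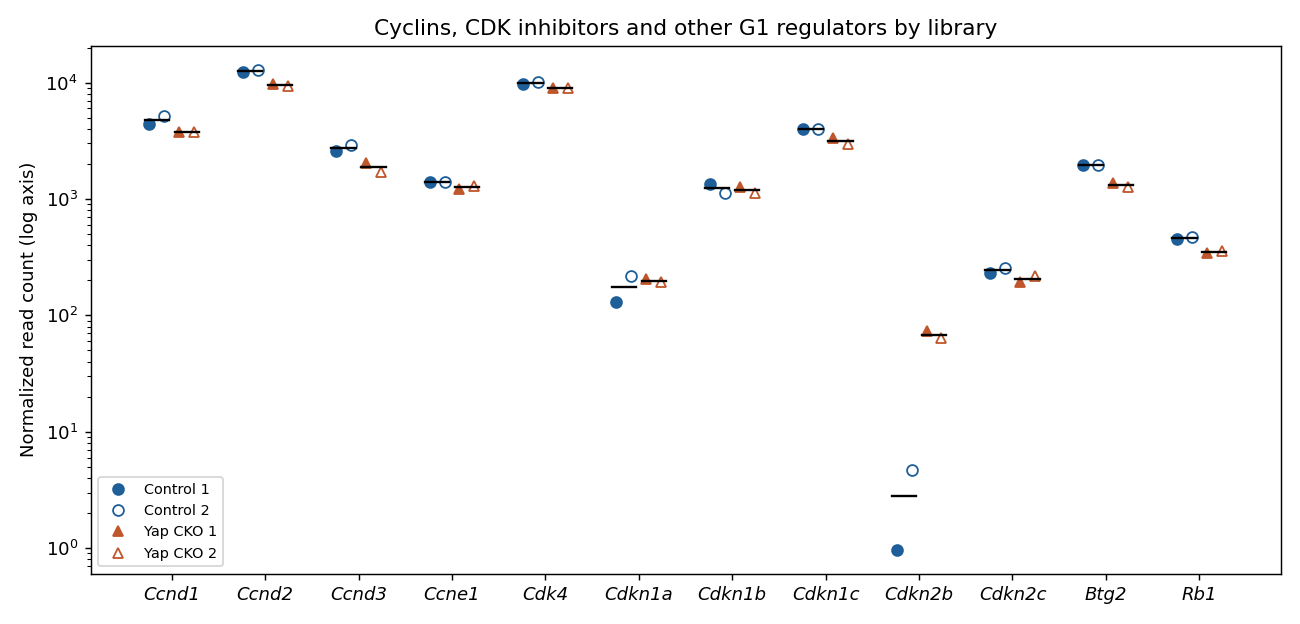
Normalized read count (log axis) of 12 genes, drawn from the G1 members, the further G1 genes and the p53 targets (Btg2), 1 point per library, with a black line at each group's mean (n = 2 per group). Cdkn2b is at 0.97 and 4.68 in the controls against 73.1 and 63.4 in Yap CKO. The next largest change shown is -0.58, for Btg2.

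Among 21 further G1 genes, written from textbook knowledge, 1 rose, 0 fell and 19 of the 20 above the filter did not pass, with a median of -0.051. Over all genes tested 2.33% passed. Before adjustment 5 of the 20 had a limma p under 0.05 (25.0%, against 18.9% of all genes). The rise was in Cdkn2b, which encodes the INK4 inhibitor p15 of Cdk4 and Cdk6 (mm10 chromosome 4, 89306299 to 89311039). Controls 1 and 2 held 0.97 and 4.68 normalized counts of it, from 1 and 4 reads, and Yap CKO 1 and 2 held 73.1 and 63.4, from 76 and 68 reads. Both Yap CKO libraries lay far above both controls. Its control values were under the minimum mean of 10, so Cdkn2b entered the test only through its level in Yap CKO. The log2 change was 4.37 ± 0.57 (SE, interval 2.99 to 5.74, adjusted p = 0.0213, limma), and the ratio of reads was 25.7 with an exact 95% counting interval of 10.8 to 80.4. The change was 3.60 without control 1, 5.13 without control 2 and 3.27 with a pseudocount of 5. The call was lost without the filter (0.0774), without the intensity trend (0.0993), and without Yap CKO 1 (0.299) or Yap CKO 2 (0.203). Cdkn2a, the neighbouring INK4 gene (chromosome 4, 89274471 to 89294653) and named after its values were seen, stayed below the filter, with 1 read in the controls and 17 in Yap CKO (15.2 times as many after scaling, exact interval 2.38 to 635). Per kilobase of merged exons, Cdkn2b stood at 49.1 in Yap CKO, Cdkn1b at 264 and Cdkn1c at 1550.

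Other G1 genes differed without passing. Cdkn1c, an imprinted gene that encodes the inhibitor p57, was at 4005 and 3972 in the controls and 3376 and 2944 in Yap CKO (-0.34, adjusted p = 0.147). Rb1, which encodes the retinoblastoma protein, was at 454 and 475 against 345 and 354 (-0.41, adjusted p = 0.14). Both are named after their values were seen. In a list of 22 p53 target genes, of which 21 were tested, 0 rose and 1 fell, and the median was 0.12. Over all genes tested 2.33% passed. Before adjustment 5 of the 21 had a limma p under 0.05 (23.8%, against 18.9% of all genes), 3 higher and 2 lower. Both Yap CKO libraries lay above both controls in 7 of the 21 (33.3%, against 25.2% of all genes). They lay below in 4 (19.0%, against 25.6%). The gene called was Btg2, an antiproliferative gene that p53 and growth signals induce. It fell from 1973 and 1979 in the controls to 1383 and 1263 in Yap CKO (-0.58 ± 0.095, adjusted p = 0.037, limma). Its change ran from -0.65 to -0.51 over the settings run. It also passed edgeR (0.0401) and DESeq2 (2.07e-04). The change was -0.58 without control 1 and -0.58 without control 2. Its adjusted p was no longer under the threshold under equal totals (0.0506), with replicate number as a block (0.0523), without the filter (0.101), without the trend (0.152), and without Yap CKO 1 (0.299) or Yap CKO 2 (0.342).

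The 6 subunits of the MCM helicase, which is loaded onto origins in G1 and unwinds DNA in S phase, were close between the groups. Their counts summed to 22796 and 22581 in the controls, against 20927 and 22325 in Yap CKO. Changes ran from -0.17 (Mcm2) to 0.010 (Mcm4), and all 6 intervals lay between -0.38 and 0.24. Mcm2 was at 4017 and 3778 in the controls and 3406 and 3544 in Yap CKO (-0.17 ± 0.09, adjusted p = 0.382), the only subunit whose groups did not overlap. Yap CKO 1 was the lowest library for each of the 6 subunits, and Yap CKO 2 lay among the controls for most of them. Mcm3 was at 4044 and 3554 against 3474 and 3562, Mcm4 at 3915 and 4019 against 3765 and 4237, and Mcm5 at 4233 and 4627 against 4156 and 4420. Mcm6 was at 4965 and 5054 against 4649 and 4997, and Mcm7 at 1622 and 1548 against 1478 and 1566. Mcm7 shares exons with genes on both strands, the microRNAs Mir25 and Mir93 among them.

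Of the factors that load and fire the helicase, Cdt1 differed most. Cdt1, the licensing factor that is degraded once S phase begins (chromosome 8, 122568015 to 122573554), was at 1465 and 1382 in the controls, against 1157 and 976 in Yap CKO. Its groups did not overlap, with a mean 25.1% lower (-0.42 ± 0.12 SE, interval -0.70 to -0.15, adjusted p = 0.125, limma). Without control 2 it passed at 0.0223, and without control 1 its adjusted p was 0.0775. Cdc6, which loads the helicase together with Cdt1, was at 793 and 850 against 721 and 793 (-0.12, adjusted p = 0.614). Orc1, a subunit of the origin recognition complex, was at 212 and 189 against 225 and 228 (0.18, adjusted p = 0.588), the largest positive value in this role. Gins2, part of the active helicase, was at 774 and 650 against 607 and 612 (-0.22, adjusted p = 0.401), or -0.093 without control 1 and -0.34 without control 2. Its partner Gins1 was at 374 and 394 against 379 and 423 (0.060, adjusted p = 0.839).

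The genes of synthesis itself were mostly level. Pcna, the sliding clamp of the replicative polymerases, was at 1707 and 1668 in the controls, against 1627 and 1713 in Yap CKO, so the groups overlapped (-0.015 ± 0.090 SE, interval -0.23 to 0.20, adjusted p = 0.948, limma). Rrm1, the large subunit of ribonucleotide reductase, was at 6494 and 6793 against 5989 and 6611, and Rrm2, its small subunit, at 3085 and 3573 against 3032 and 3229. Both pairs of groups overlapped. Pola1, the catalytic subunit of the priming polymerase, is on the X chromosome (93304767 to 93632155) and was at 2029 and 1721 against 1418 and 1582 (-0.32 ± 0.12 SE, interval -0.60 to -0.038, adjusted p = 0.217). Control 1, the library with Y-linked transcripts, was its highest, and the difference was -0.20 without control 1 and -0.44 without control 2. The 15 replication members had a median of -0.078, and 4 had both Yap CKO libraries below the controls (26.7%, against 25.6% of all genes).

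The mitosis genes had the smallest median of the 3 roles, -0.053, and the widest spread between the controls. Under equal totals, where the median of all genes was 0.057, the sign of the mitosis median turned (0.0091). Without single libraries it ran from -0.12 to -0.015. Mki67, the proliferation marker that coats mitotic chromosomes (chromosome 7, 135689784 to 135716361), was at 16629 and 13034 in the controls, against 11736 and 13155 in Yap CKO. Control 1 stood apart and control 2 lay within the range of the Yap CKO libraries. The means were 14832 ± 2542 and 12446 ± 1003 (SD, n = 2), a difference of -0.24 ± 0.14 (SE, interval -0.59 to 0.097, adjusted p = 0.416, limma). Without control 1 it was -0.069 and without control 2 it was -0.42. Without control 2 the only control left is control 1, the library with Y-linked transcripts. Sex and genotype cannot be told apart in that fit, for Mki67 or any other gene. Top2a, the topoisomerase that untangles sister chromatids, was at 12053 and 10781 against 10544 and 12005 (-0.019, adjusted p = 0.95).

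Among the mitotic cyclins and their kinase, the groups overlapped for all but Ccna2. Cdk1, the kinase that starts mitosis, was at 3042 and 2722 in the controls and 2885 and 2955 in Yap CKO (0.021, interval -0.21 to 0.25, adjusted p = 0.932). Ccnb1 was at 1779 and 1997 against 1886 and 2001 (0.044, adjusted p = 0.853), the largest positive change in this role, and Ccnb2 at 1696 and 1261 against 1510 and 1497. Ccna2, which acts in S phase and at the entry into mitosis, was at 5164 and 4951 against 4358 and 4781 (-0.15, adjusted p = 0.461), without overlap. The transcription factors of this program were also close. Foxm1 was at 3869 and 3858 against 3686 and 3748 (-0.056, adjusted p = 0.773), and Mybl2, which encodes B-Myb, at 745 and 682 against 668 and 719 (-0.041, adjusted p = 0.877).

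Cenpf and Plk1 had the lowest p-values of this role. Cenpf, a kinetochore and G2 phase protein (chromosome 1, 189640606 to 189688086), was at 3766 and 2880 in the controls and 2405 and 2748 in Yap CKO (-0.36 ± 0.15 SE, interval -0.71 to -0.0062, adjusted p = 0.258, limma). The groups did not overlap, but control 1 was far above control 2. The difference was -0.16 without control 1 and -0.55 without control 2. Cenpe, the kinetochore motor, was at 2842 and 1834 against 1865 and 2259, with overlap (-0.15, adjusted p = 0.744). Plk1, a kinase of mitotic entry and exit, was at 1284 and 1531 against 1192 and 1144 (-0.26, adjusted p = 0.284). It had the reverse pattern of controls, at -0.39 without control 1 and -0.14 without control 2. Aurka, the spindle pole kinase, was at 1340 and 1271 against 1160 and 1144 (-0.18, adjusted p = 0.36), without overlap. Aurkb, the kinase of the chromosomal passenger complex, was at 2278 and 2093 against 1996 and 2038 (-0.11, adjusted p = 0.562), or -0.054 without control 1 and -0.18 without control 2. Its partners Birc5 (0.032) and Cdca8 (0.004) were nearer to 0.

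The checkpoint and spindle genes completed the role. Bub1b, a checkpoint kinase, was at 4548 and 4299 against 4001 and 4093 (-0.13, adjusted p = 0.494), without overlap, and Bub1, its paralog, was at 3186 and 3085 against 2753 and 3173 with overlap. Cdc20, which activates the anaphase-promoting complex, was at 1115 and 936 against 1030 and 945. Kif11, the motor that separates the spindle poles, was at 3581 and 3244 against 3129 and 3580, and Tpx2, which nucleates spindle microtubules, at 3052 and 3168 against 2946 and 3186. The groups of these last 3 genes overlapped. In all, 7 of the 20 mitosis members had both Yap CKO libraries below the controls (35.0%, against 25.6% of all genes) and 0 had both above (against 25.2%).

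**Figure D3:**
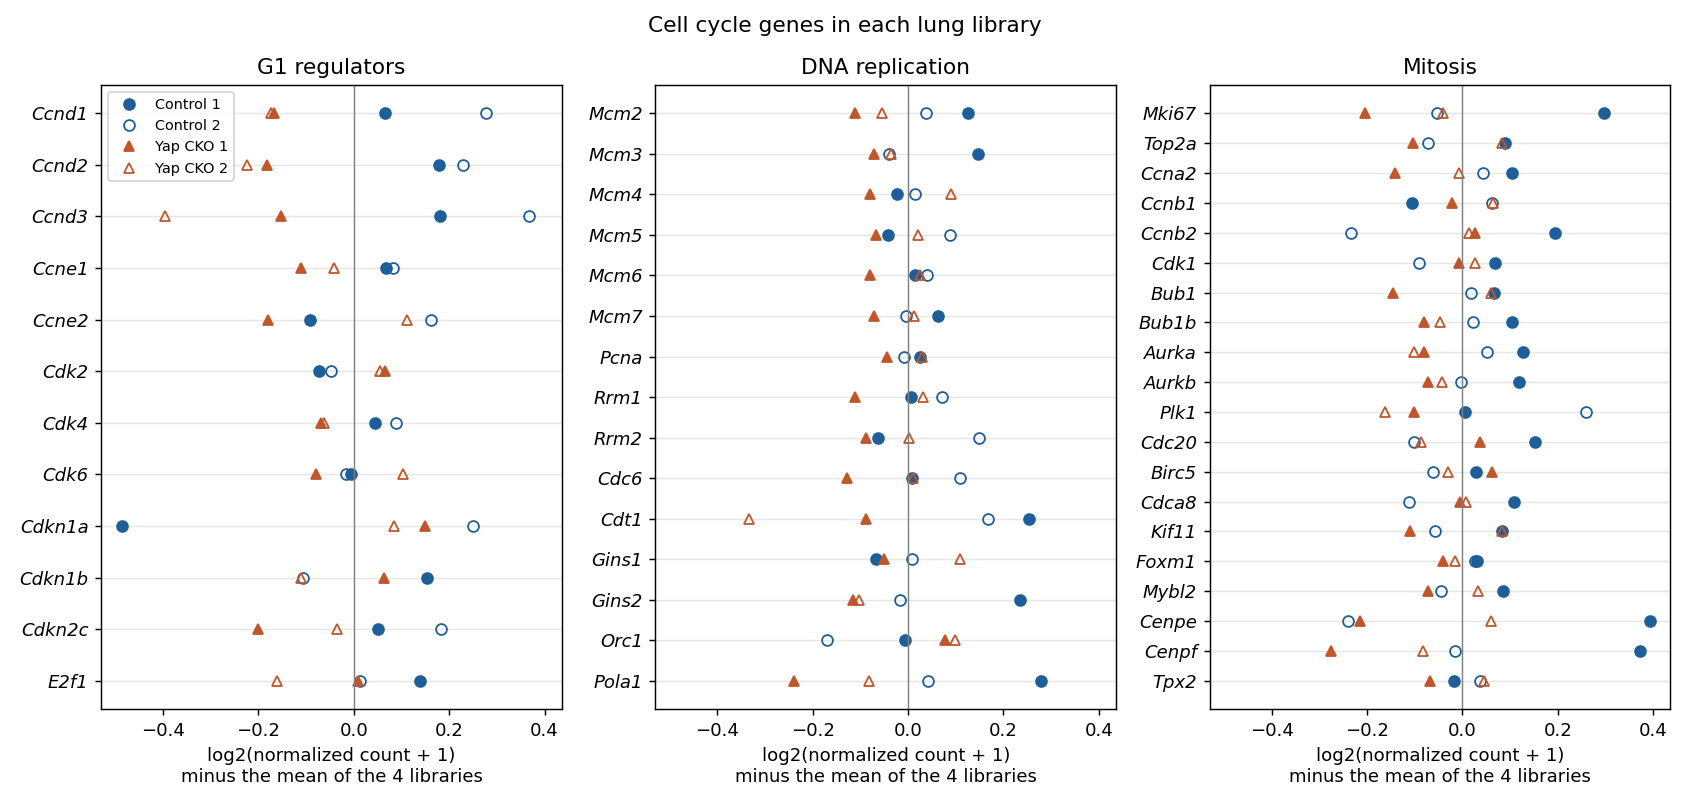
Log2(normalized count + 1) of each of the 47 members in each library minus the mean of the 4 libraries (horizontal axis), in 3 panels by role, with circles for controls and triangles for Yap CKO. Both triangles lie left of both circles for the 3 D cyclins, while control 1 lies apart on the right for Mki67, Cenpe and Cenpf and on the left for Cdkn1a.

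The 4 libraries were ordered differently in each role. Among the G1 regulators control 2 was the highest library for 8 of 12 genes, and each Yap CKO library was the lowest for 5. For the replication members Yap CKO 1 was lowest for 12 of 15. In the mitosis genes control 1 was highest for 16 of 20 and lay above control 2 for 17 of 20. Control 1 lay above control 2 for 10594 of the 19472 genes tested, and Yap CKO 2 lay above Yap CKO 1 for 34 of 47 members, against 9764 of all genes tested. The median deviation of the mitosis members from their 4-library mean was 0.097 and -0.029 in the controls, -0.076 and 0.00 in Yap CKO 1 and 2, so that the controls enclosed Yap CKO 2. For the D cyclins it was 0.18, 0.28, -0.17 and -0.22, and no library of either group entered the other's range.

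**Figure D4:**
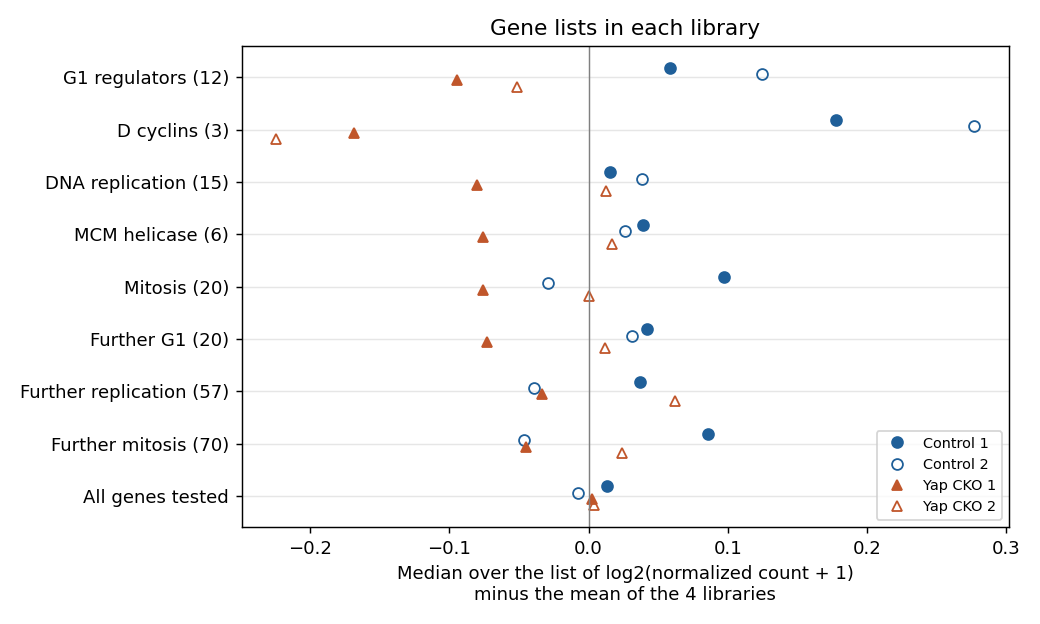
Median over each gene list of log2(normalized count + 1) minus the mean of the 4 libraries (horizontal axis), 1 point per library, with the number of genes tested in brackets. The D cyclins are at 0.18 and 0.28 in the controls and -0.17 and -0.22 in Yap CKO, and the groups overlap for the further replication and mitosis genes.

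Over all genes tested 2.33% passed limma, a share at which lists as short as those of the wider pathway would hold few calls. Of 57 further replication genes 0 passed in either direction (0 with edgeR, 0 with DESeq2), and the median was -0.002. Before adjustment 4 had a p under 0.05, which is 7.02% against 18.9% of all genes. Orc6, an origin recognition subunit, was at 1120 and 1110 in the controls and 1372 and 1537 in Yap CKO (0.38, adjusted p = 0.117), and Asf1b, a histone chaperone of S phase, at 1138 and 1193 against 874 and 945 (-0.36, adjusted p = 0.129). Of 70 further mitosis genes 0 passed limma (0 with edgeR, and 2 with DESeq2, which called 5.33% of all genes), and the median was -0.037. Before adjustment 11 had a p under 0.05, which is 15.7% against 18.9% of all genes. The DESeq2 calls were Knl1, a kinetochore scaffold, and Aspm, a spindle pole protein. Knl1 was at 2296 and 2004 in the controls and 1317 and 1578 in Yap CKO (-0.57, adjusted p = 0.0791 in limma and 0.00365 in DESeq2). Aspm was at 2595 and 2292 against 1415 and 1905 (-0.57, adjusted p = 0.122 in limma and 0.0213 in DESeq2). Over all 148 further genes, 147 of which were tested, 78 changes were negative and 69 positive.

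Levels per kilobase of merged exons, which include the exons of rare isoforms, put the members in an order. In controls Cdk4 led with 3043 normalized counts per kilobase, and Mki67 (1474), Ccnd2 (1343), Top2a (1267) and Ccna2 (1239) came next. The lowest were Cdkn1a (49.2), Orc1 (57.7) and Cdkn2c (90.7). Among the D cyclins Ccnd2 led Ccnd1 (1014) and Ccnd3 (312) in controls, and the order was the same in each of the 4 libraries. The ratio of Ccnd1 to Ccnd3 on this scale was 3.22 and 3.27 in the controls and 3.45 and 4.07 in Yap CKO. Among the MCM subunits, which act in equal numbers in the helicase, Mcm3 to Mcm6 lay between 1012 and 1109 in controls, with Mcm2 at 560 and Mcm7 at 358.

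**Figure D5:**
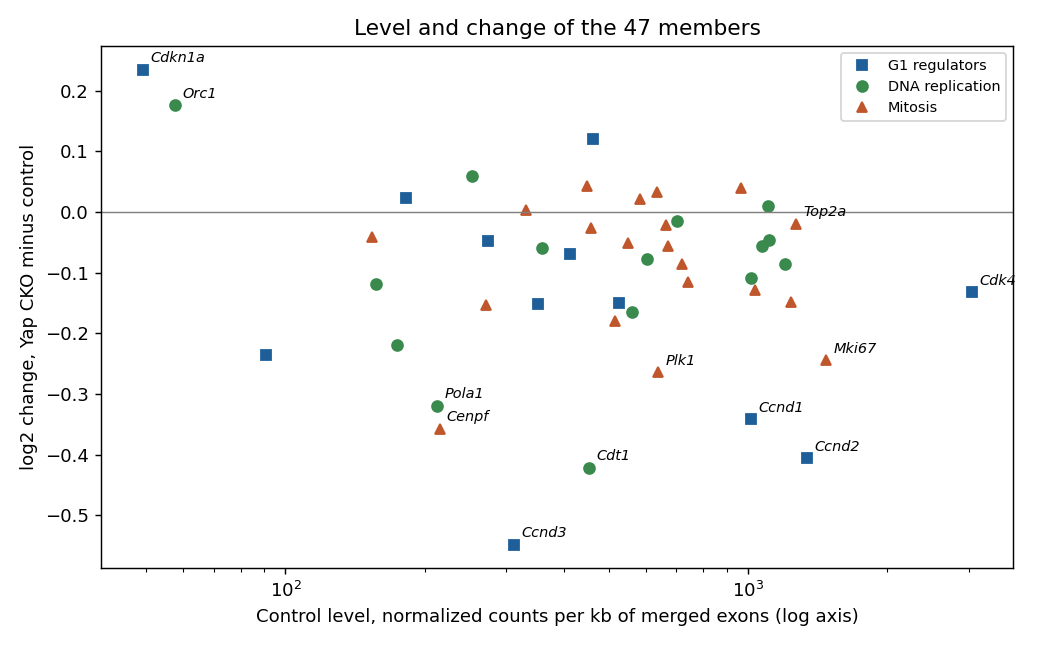
Log2 change of each of the 47 members (vertical axis, Yap CKO minus control) against its level in controls in normalized counts per kilobase of merged exons (horizontal log axis), with a symbol for each role. Ccnd3 lies lowest at a level of 312, Cdt1 and Ccnd2 follow at 453 and 1343, and the positive extremes, Cdkn1a and Orc1, are the members with the lowest levels.

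Cell type markers were summed in each library to set beside the members. The 12 epithelial genes summed to 22102 and 20778 normalized counts in controls 1 and 2, against 20081 and 21026 in Yap CKO, with a median change of -0.15. Of these 12, 4 lay lower in both Yap CKO libraries (Cdh1, Krt8, Cldn6 and Sox2) and 2 higher (Cldn7 and Sftpc). Over all genes tested 25.6% lay lower in both and 25.2% higher. Sox2, a factor of the proximal airway epithelium, fell from 374 and 381 to 194 and 208 (-0.91, adjusted p = 0.0286, limma). Sftpc, a surfactant protein gene of the distal epithelium, rose from 1808 and 1951 to 3673 and 3662 (0.97, adjusted p = 0.00909, limma). Sox9, also on this list, was at 1428 and 1401 in the controls against 1448 and 1233 in Yap CKO, with overlap (-0.082, adjusted p = 0.739, limma). A shift between proximal and distal epithelium was not tested. The single markers named here were chosen after their values were seen. The 8 endothelial genes summed to 17406 and 19192 against 18532 and 17983. The 10 mesenchymal genes summed to 94748 and 110526 against 87854 and 78262, a sum led by Col1a1 and Col1a2. By gene, 4 of the 10 lay higher in both Yap CKO libraries (Tbx4, Tbx5, Pdgfra and Pdgfrb), against 25.2% of all genes. Another 4 lay lower (Foxf1, Col1a1, Col1a2 and Wnt2), against 25.6%. The median of the 10 was 0.084, and 0 of 10 were called. Erythroid genes (13) summed to 119800 and 162423 against 90139 and 117731, with a median of -0.83, 1 called higher and 1 lower. Leukocyte genes (9) summed to 3177 and 3694 against 2994 and 2881, with a median of -0.34 and 0 called. The mesenchymal, erythroid and leukocyte sums were each lower in both Yap CKO libraries than in both controls. The 11 liver genes summed to 29.1 and 87.7 against 1657 and 904, and the 4 of them above the filter were called higher. The filter takes the mean over all libraries, so genes this low in the controls pass it mainly through Yap CKO. The direction of their calls was then largely set by the filter. None of the 78 listed markers was at 0 in all libraries. The part of these markers in the values of the cell cycle genes was not tested.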

How the data were processed

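RNA of 4 whole-lung samples was sequenced, 2 per group, and grouped by their titles. The deposited signal is a normalized read count per Ensembl gene. Tools listed in the submitters' processing notes, without role or order, are edgeR 3.18.1, DESeq 1.16.0, featureCounts 1.5.0-p1 and Bowtie2 2.2.9, with the build mm10, and annotation release and strand setting are not given in the sources used here. Every value was a whole multiple of 1 number per library (100% within 0.001 reads), so reads were recovered for the count tests. Totals were 21285794 and 17756301 reads in controls 1 and 2 and 20552208 and 21333878 in Yap CKO 1 and 2. A count of 0 allows 3 reads, which is 2.80 to 3.51 normalized counts, and intervals on reads cover counting error only. Replicates were not copies of each other (chi-square per degree of freedom 22.1 for controls, 6.64 for Yap CKO).

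Values were transformed to log2(normalized count + 1), genes with a mean of at least 10 were kept, and limma 3.58.1 in R 4.3.3 was fitted to all 19472 genes (linear model, intensity trend, two-sided, Benjamini-Hochberg, called at an adjusted p under 0.05, 2 residual degrees of freedom plus 4.5 from other genes). Symbols, positions and merged exon lengths came from GENCODE M21 (GRCm38, also called mm10), which matched 52489 identifiers, and promoters from RefSeq GRCm38.p6. Alternatives were other scalings, pseudocounts of 0.5 and 5, filters, no trend, the replicate number as a block, leaving out each library, edgeR 4.0.16 and DESeq2 1.42.0. The members and lists were chosen with earlier results of these data known. All 47 members are described, in full for the 5 lowest p-values per role, the extremes, and Cdkn1a, Mki67, Ccnd1, Ccnd2, Ccnd3 and Pcna. From the wider lists the called genes are named, or else the 2 with the lowest p. Genes outside this rule are marked as named after their values were seen.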

Additional observations from a re-analysis of the deposited data

How the results depend on the processing

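The 454 calls over all genes became 56 without the filter, 6 without the intensity trend, 1037 with DESeq2, and 2 to 2459 when single libraries were left out. The 0 calls among the members became 2 with DESeq2 (both G1 regulators) and 0 to 8 without single libraries (G1 regulators 0 to 3, replication 0 to 2, mitosis 0 to 3). Without control 2 they were Ccnd2, Ccnd3, Cdkn1a, Cdt1, Pola1, Mki67, Cenpe and Cenpf, and without control 1 they were Ccnd1, Ccnd2, Ccnd3 and Plk1. DESeq2 called 5.33% of all genes, a share that 2 of the 47 members do not exceed. Dropping either control raised the share of all genes called as well, as given above, and left the spread of the controls unmeasured. The names from those fits are therefore not a result about the members. The single further gene called, Cdkn2b, became 0 calls without the filter, with the filter at 50 or without the trend, 3 with DESeq2 (Cdkn2b, Knl1 and Aspm) and 0 to 5 without single libraries. Without the filter 33288 genes are tested, and with the filter at 50 Cdkn2b is not tested, since its mean lies below it. The cause of the other shifts was not tested. The median of the G1 regulators was -0.079 under equal totals and -0.083 under quantile scaling, and that of the replication members -0.016 and -0.017. The median of all genes tested was 0.057 and 0.0078 under these scalings. Without single libraries the replication median was -0.13 to -0.017. With the replicate number as a block 342 genes and 0 members were called, and Btg2 lost its call (0.0523), the only named call to end there. The labels give only the shared number, and same-numbered libraries did not deviate together (correlation -0.36). With the numbers crossed, a pairing chosen after seeing the data, 972 genes and 1 member were called. All members kept their direction under TMM and median ratio scaling, both pseudocounts, both filters, no trend and the block. Signs turned under equal totals (Cdc20 0.012, Cdkn1b 0.015, Foxm1 0.0063, Kif11 0.036, Mcm5 0.016, Mcm6 0.0064, Mcm7 0.0031, Mybl2 0.021, Pcna 0.047, Top2a 0.043, Tpx2 0.041), quantile scaling (Foxm1 0.016, Kif11 0.036, Mcm5 0.023, Mcm6 0.0031, Pcna 0.031, Rrm1 0.0062, Top2a 0.086, Tpx2 0.046), edgeR (Cdca8 -0.00113) and DESeq2 (Cdca8 -3.53e-04). Without single libraries the ranges of members whose sign turned were Birc5 -0.014 to 0.079, Bub1 -0.19 to 0.017, Ccnb1 -0.040 to 0.13, Ccnb2 -0.17 to 0.25, Ccne2 -0.21 to 0.077, Cdc20 -0.18 to 0.077, Cdca8 -0.11 to 0.11, Cdk1 -0.059 to 0.10, Cdk6 -0.069 to 0.11, Cdkn1a -0.13 to 0.60, Cdkn1b -0.18 to 0.082, Cenpe -0.47 to 0.16, Gins1 -0.019 to 0.14, Kif11 -0.12 to 0.071, Mcm4 -0.075 to 0.095, Mcm5 -0.11 to 0.018, Mybl2 -0.10 to 0.024, Pcna -0.053 to 0.022, Rrm2 -0.19 to 0.021, Top2a -0.11 to 0.075, Tpx2 -0.078 to 0.035. In 22 members no setting run turned the sign. Of the 26 members whose sign held without each library, 15 moved by over 1.5 times, Gins2, E2f1 and Aurkb among them. With 2 libraries per group, 34 of 47 intervals lay within 0.5 log2 units, and for the other members a difference of that size lies inside the interval.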
